A study of Mus musculus with 6 samples.

Results

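The nuclear genes of the mitochondrial respiratory chain and ATP synthase were described in Neuro2a cells, a mouse neuroblastoma line, with and without D-serine in the medium. Members were chosen by gene symbol alone, as the structural genes of complexes I to V together with cytochrome c, the Uqcc assembly factors of complex III and a few accessory genes. Symbols that start with Ndufaf, which are assembly factors of complex I, were left out. The rule found 90 of the 24391 genes in the count table, 36 of complex I, 4 of complex II, 9 of complex III, 19 of complex IV, 15 of complex V and 7 outside these complexes. The control group was 3 libraries of cells given vehicle and the treated group was 3 libraries of cells given 5 mM D-serine, all from 1 cell line and taken 18 h after a change to D-MEM(-SG) with 10% serum. D-serine, the D-enantiomer of the amino acid serine, acts in brain at the glycine site of NMDA receptors. Nothing in the labels says whether the libraries of a group came from separate cultures, so the p-values measure only the spread between these libraries, which may be technical.

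The respiratory chain passes electrons from NADH (complex I) and succinate (complex II) through coenzyme Q to complex III, then through cytochrome c to complex IV, where oxygen is reduced to water. Complexes I, III and IV pump protons across the inner mitochondrial membrane, and complex V, the ATP synthase, lets them flow back to make ATP. Each complex except complex II also holds subunits encoded by mitochondrial DNA, which were not analysed here.

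Total counts lay between 32518483 and 40024265 per library. D-serine replicate 1 stood apart from the other libraries of its group, with a chi-square statistic per degree of freedom of 17.7 and 13.9 against them, where all other pairs within a group lay between 3.88 and 6.54. Of 10 sympathoadrenal markers of the labelled cell type, 7 had at least 5 CPM on average (the count scaled to a fixed library size, here adjusted by the trimmed mean of M values), among them Hand2 and Gata2, whereas Th and Dbh were low. No marker of fibroblasts, glia, macrophages or muscle reached that level. Over all genes, 13366 were expressed highly enough to be tested, and 9.74% of them differed at an adjusted p under 0.05 in edgeR's quasi-likelihood test with Benjamini-Hochberg adjustment, the threshold used throughout. They divided into 647 higher and 655 lower genes, but into 914 and 412 with upper quartile scaling and 944 and 412 with library totals. Under both, 13 members were higher and 0 lower.

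Of the 90 members, 86 were tested and 11 passed the threshold, all of them higher with D-serine. That is 12.8% of the tested members, against 4.84% of all tested genes called higher and 4.9% called lower. The 11 were Ndufa3, Ndufa5, Ndufa8, Ndufa12, Ndufb2, Ndufb5 and Ndufc1 of complex I, Cox6a2 of complex IV, Atp5j2 of complex V, the electron carrier Cycs and the complex III assembly factor Uqcc2. Their log2 fold changes lay between 0.14 and 0.39. The median log2 fold change over the 86 tested members was 0.094, against 0.0053 over all genes tested. Of the 86, 74 (86.0%) were above 0, against 51.5% of all genes tested. The count of members past the threshold moved with single libraries, and so did the calls over all genes. No member passed when either control replicate 1 or control replicate 2 was left out. Over all genes, 1302 calls fell to 125 and 68 in those fits. The member count was 5 on leaving out control replicate 3 (453 calls over all genes). It was 22 on leaving out D-serine replicate 2 (1566 over all genes) and 1 on leaving out D-serine replicate 3 (291 over all genes). Each of the 11 stayed past the threshold in 1 to 4 of these 6 fits, and its highest edgeR adjusted p among them was between 0.0738 and 0.185. At an unadjusted p under 0.05 in the fit with all libraries there were 28 members (32.6%), all of them higher. Over all tested genes the share was 28.2%, counted in both directions together.

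**Figure D1:**
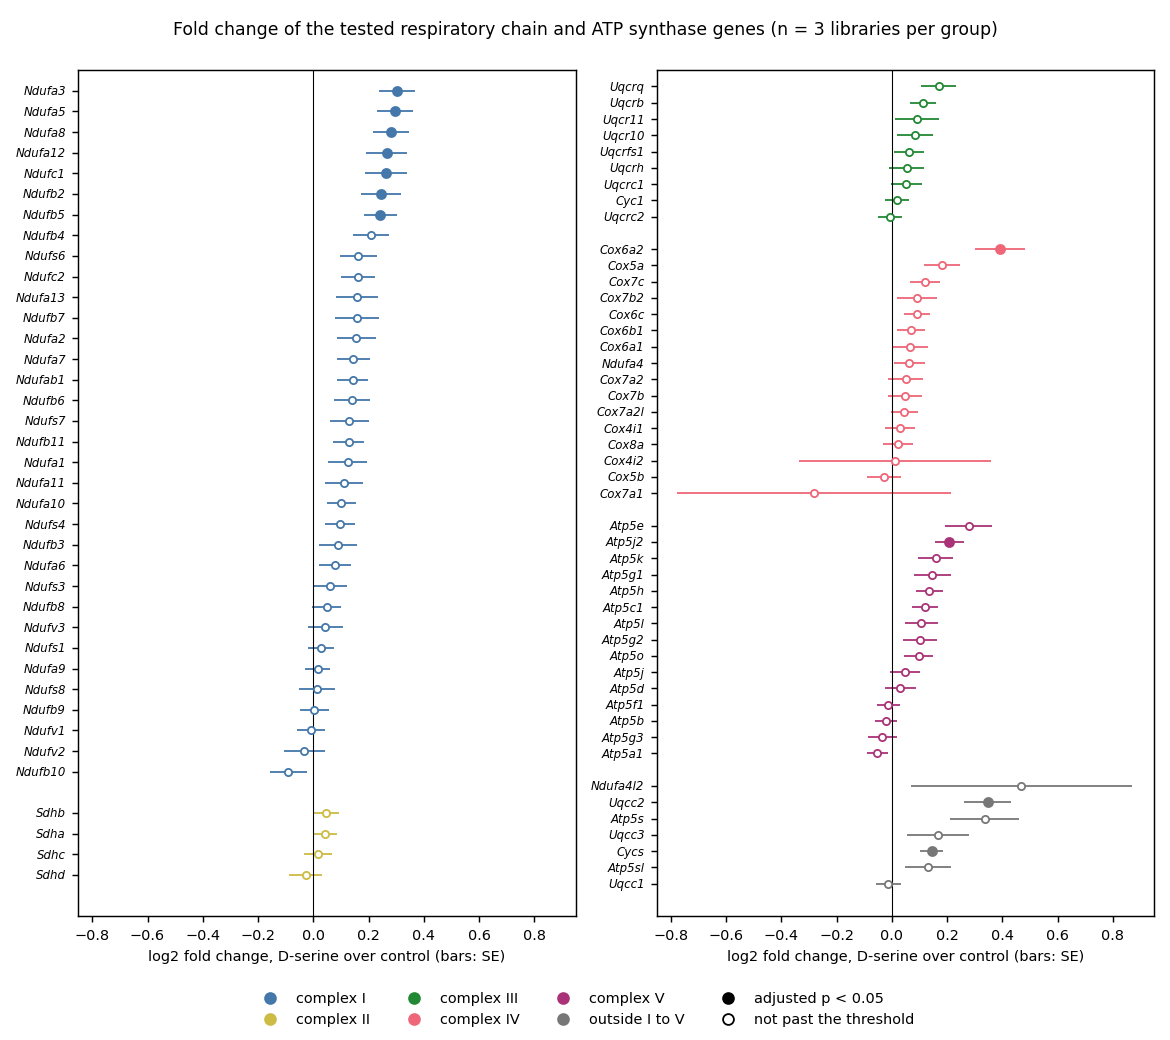
Log2 fold change of D-serine over control for 85 of the 86 tested members, grouped by complex, with bars of 1 standard error from edgeR (3 libraries per group). Filled points passed an adjusted p of 0.05. The 11 filled points are all to the right of 0, and 7 of them belong to complex I, the largest group.

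The members are short genes, and fold change moved with gene length in these libraries. The median summed exon length was 746.5 bases in the tested members and 2834.5 bases in all tested genes. Of all tested genes, the 1338 in the shortest decile, from 30 to 1100 bases, had a median log2 fold change of 0.10, and 59 of the 86 members are in that decile. The slope of a library's deviation (log2 CPM against the mean of the 6 libraries) on log2 length was 0.036, 0.019 and 0.015 for the control libraries, and for D-serine replicates 1 to 3 it was -0.072, 0.0058 and -0.0040 (exact two-sided permutation p = 0.1 for the difference between groups, the lowest p possible with 3 libraries a group). Once a smooth length trend had been taken out of every library, 8 members were called higher and 3 lower, where 7.65% and 7.63% of all tested genes were called higher and lower. The 3 lower members were Ndufb10, Cox5b and Atp5g3, the last named after its values were seen. The median log2 fold change of the members was then 0.015, against 0.0040 over all genes and 0.020 over the shortest decile. Of the 86 members, 50 were above 0, against 6839 of all 13366 tested genes. The Spearman correlation of fold change with length in that fit was -0.21 within the members and -0.0083 over all genes. The 8 higher members were all among the 11. Gene length and D-serine replicate 1 moved with the result, and their part in it was not tested beyond these fits.

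The level of most members was highest in D-serine replicate 1. This held for 74 of the 86 tested members, against 23.6% of all tested genes. The median deviation of the members from their mean over the 6 libraries was, in log2 CPM, -0.097, -0.051 and 0.012 for control replicates 1 to 3. For D-serine replicates 1 to 3 it was 0.14, -0.034 and 0.025. D-serine replicates 2 and 3 thus lay within or just above the range of the control libraries. Without D-serine replicate 1, 10 members were called higher, where 5.78% of all genes were, and 1 was called lower, Ndufb10, where 6.76% were. The median log2 fold change was then 0.035. With all libraries, the groups did not overlap in 20 members, all higher, which is 23.3% of those tested, against 16.2% of all tested genes higher and 16.6% lower without overlap.

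**Figure D2:**
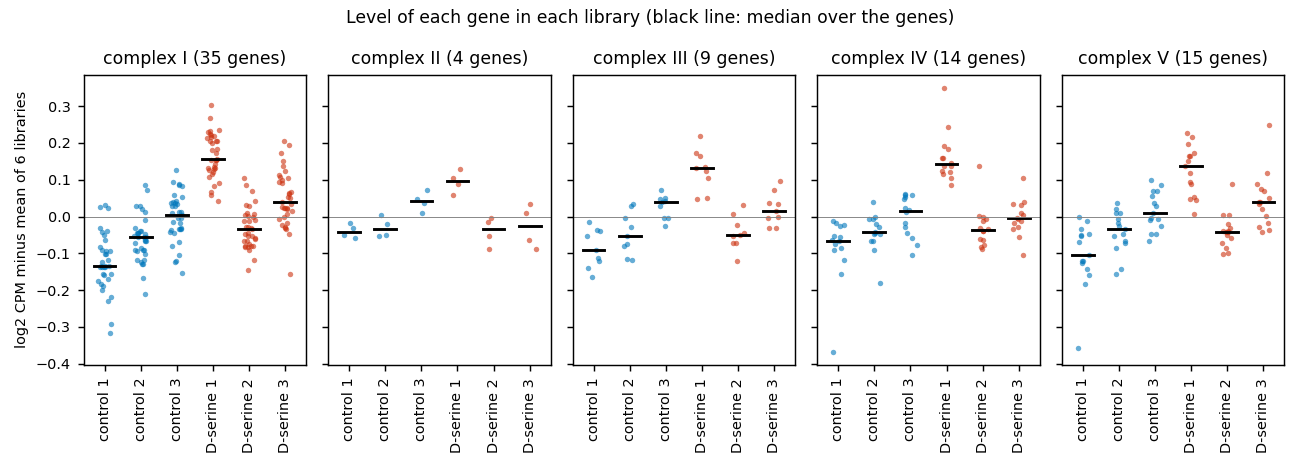
Level of each tested member with at least 5 CPM in each library, as log2 CPM minus the mean of the 6 libraries, for complexes I to V. Points are genes (blue for control, red for D-serine) and black lines are medians over the genes. In every complex the median is highest in D-serine replicate 1, and the points of D-serine replicates 2 and 3 overlap those of the control libraries.

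**Figure D3:**
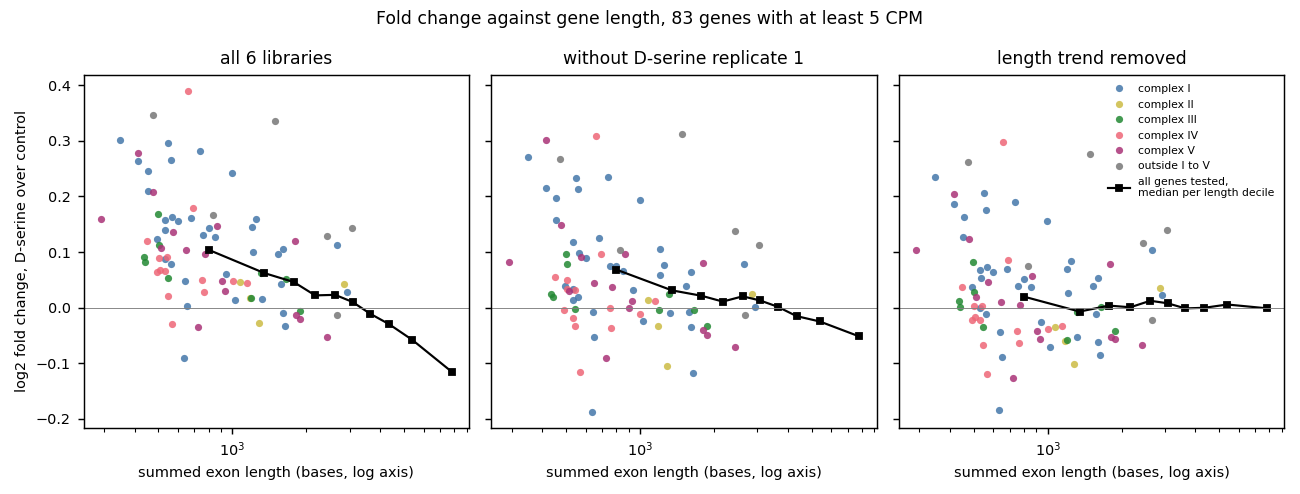
Log2 fold change against summed exon length (log axis) for the 83 tested members with at least 5 CPM, with all libraries, without D-serine replicate 1 and with the length trend removed. Black squares join the medians of all tested genes per length decile. At the short end the members scatter on both sides of the line of all genes, and the line is flattest in the panel with the trend removed.

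Complex I, the NADH dehydrogenase, is the largest of the groups and had the most members past the threshold. Of its 35 tested genes, 7 passed, all higher, where 4.84% of all tested genes were called higher. The median log2 fold change was 0.13. Of its tested genes 91.4% were above 0, against 75%, 88.9%, 87.5% and 73.3% in complexes II to V and 51.5% of all tested genes. With the length trend removed, 4 genes of complex I were called higher and 1 lower, where 7.65% and 7.63% of all tested genes were. All 7 that passed with the main fit encode accessory subunits, which surround the core that carries the electrons. Of the 7 core genes 0 were called, where 9.74% of all tested genes were called in either direction. The 28 tested accessory genes had a median of 0.14 and a median length of 638 bases, whereas the 7 core genes had 0.028 and 1606 bases. With the length trend removed the medians were 0.065 and -0.026, and without D-serine replicate 1 they were 0.078 and 0.00042. The difference between accessory and core genes was not tested.

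Ndufa5, an accessory subunit of the peripheral arm that reaches into the matrix, stood at 52.0, 52.9 and 52.1 CPM in control replicates 1 to 3, against 69.7, 57.8 and 65.3 CPM in D-serine replicates 1 to 3. All 3 D-serine libraries were above all 3 control libraries, and the control libraries were within 1 CPM of each other. It rose by 0.30 on the log2 scale (SE 0.064, edgeR adjusted p = 0.0166). Ndufa3, of the membrane arm, stood at 29.9, 28.3 and 30.6 CPM in control and at 38.0, 33.5 and 37.9 CPM with D-serine (log2 fold change 0.30, SE 0.066, edgeR adjusted p = 0.0169). Ndufa8, which lies on the outer face of the membrane arm, stood at 37.3, 40.2 and 41.6 CPM in control and at 51.3, 45.0 and 48.5 CPM with D-serine (log2 fold change 0.28, SE 0.064, edgeR adjusted p = 0.0196). The groups did not overlap in these 3 genes either with or without D-serine replicate 1. Each kept its call with the length trend removed, at edgeR adjusted p-values of 0.00867, 0.0153 and 0.0196, and without D-serine replicate 1, at 0.0096, 0.0127 and 0.0158.

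The other 4 had adjusted p-values nearer the threshold. The mean of Ndufb5, of the membrane arm, was 33.6 ± 0.41 CPM for the control libraries against 39.7 ± 2.31 CPM for the D-serine libraries (SD over 3 libraries, log2 fold change 0.24, edgeR adjusted p = 0.0261). Ndufa12, of the peripheral arm, was 68.6 ± 8.13 and 82.5 ± 5.07 CPM (0.27, adjusted p = 0.0437), with control replicate 1 the lowest at 60.3 CPM. Ndufc1 was 24.0 ± 2.21 and 28.9 ± 1.64 CPM (0.26, adjusted p = 0.0483), again lowest in control replicate 1, at 21.5 CPM. Ndufb2 was 42.9 ± 2.20 and 50.8 ± 5.11 CPM (0.25, adjusted p = 0.0486), and it was the 1 gene of the 11 whose groups overlapped, because D-serine replicate 2, at 45.0 CPM, was below control replicate 3, at 45.4 CPM. With the length trend removed, Ndufb5, Ndufc1 and Ndufb2 were past the threshold no longer (edgeR adjusted p = 0.0538, 0.0698 and 0.0685).

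**Figure D4:**
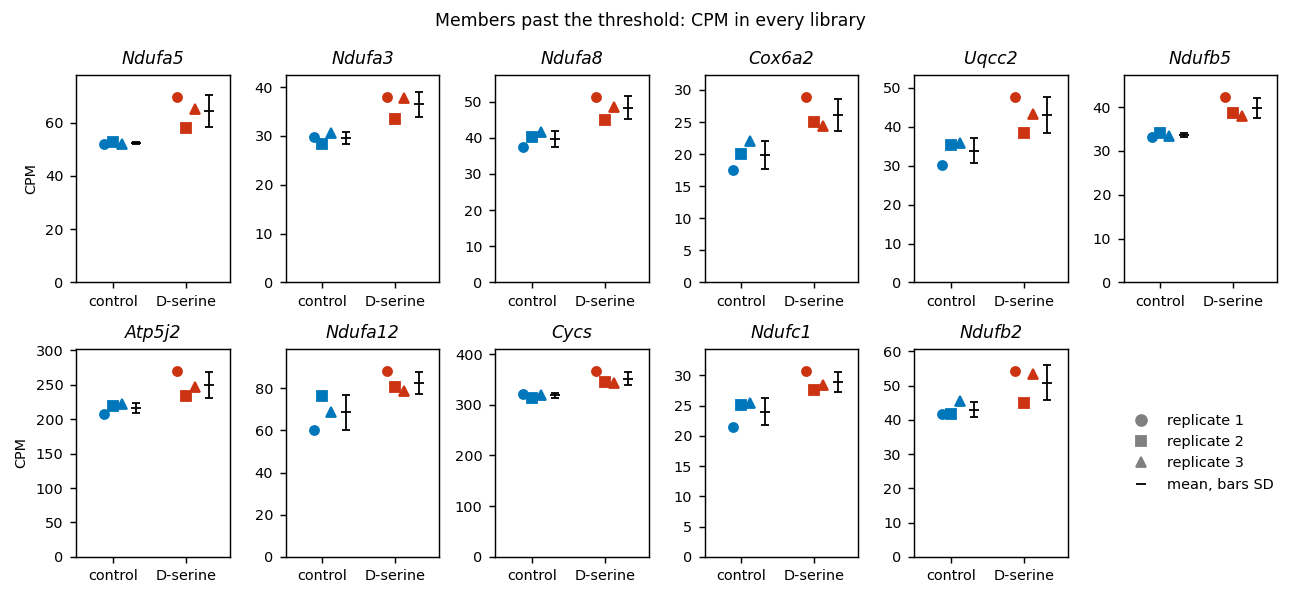
CPM in every library for the 11 members past the threshold, with the mean and SD of each group (3 libraries each) beside the points and axes from 0. D-serine replicate 1 (circle) is the highest value in each panel, and of these 11 genes only Ndufb2 has groups that overlap.

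Core subunits of complex I did not pass the test. Ndufv1, which holds the NADH binding site, stood at 121, 130.5 and 136 CPM in control and at 132, 126 and 126.5 CPM with D-serine (log2 fold change -0.0097, SE 0.051). Ndufs1, the largest iron-sulfur subunit, had a log2 fold change of 0.028 (SE 0.047), and 248 of its exonic bases are shared with Ino80dos on the opposite strand. The libraries of the groups overlapped in both genes. Ndufb10, a membrane arm subunit, had the largest negative value in the complex. It stood at 96.1, 96.5 and 101 CPM in control and at 104, 87.1 and 84.8 CPM with D-serine. Its D-serine libraries went to both sides of the control libraries, with replicate 1 above all of them and replicates 2 and 3 below. Its log2 fold change was -0.090 with all libraries (edgeR adjusted p = 0.407), -0.19 without D-serine replicate 1 (adjusted p = 0.00931) and -0.18 with the length trend removed (adjusted p = 0.0115).

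Promoter windows are shown for Ndufa5, Ndufa8 and Uqcc2, the called members whose windows hold the letters of an NRF1 site. NRF1 is a transcription factor known for binding many respiratory chain promoters. RefSeq windows of 250 bases before the transcription start (assembly GRCm38.p6) were matched for 74 of the 90 members, and the NRF1 letters, GCGCA and GCGC with 1 base of any kind between them, were searched on both strands. They were found in 14 of the 74 members (18.9%), against 4.23% of 27025 genes with such a window. Among matched members they occurred in 3 of 10 called higher and in 10 of 61 tested without a call. The ETS motif CCGGAAG occurred in 12 of the 74 members (16.2%) and in 7.83% of all genes with a window, but in 0 of the 10 members called higher. The ERR motif TCAAGGTCA occurred in 1 of the 74 (1.35%) and in 0.422% of all. The 3 windows shown hold no ETS or ERR letters, and a match of letters does not show binding. The windows lie at chr6:24527691-24527940 for Ndufa5, chr2:36049339-36049588 for Ndufa8 and chr17:27133892-27134141 for Uqcc2, all on the minus strand, and the capitals mark the NRF1 letters.
Ndufa5: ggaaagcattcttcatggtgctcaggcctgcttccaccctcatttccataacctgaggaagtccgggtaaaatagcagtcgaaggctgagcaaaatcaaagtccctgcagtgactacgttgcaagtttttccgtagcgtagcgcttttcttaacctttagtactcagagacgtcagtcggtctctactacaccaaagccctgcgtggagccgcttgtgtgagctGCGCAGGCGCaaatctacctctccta
Ndufa8: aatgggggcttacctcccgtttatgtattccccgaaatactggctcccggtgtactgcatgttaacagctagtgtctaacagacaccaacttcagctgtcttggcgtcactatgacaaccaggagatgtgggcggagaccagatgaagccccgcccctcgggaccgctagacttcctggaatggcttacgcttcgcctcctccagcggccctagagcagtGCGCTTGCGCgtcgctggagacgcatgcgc
Uqcc2: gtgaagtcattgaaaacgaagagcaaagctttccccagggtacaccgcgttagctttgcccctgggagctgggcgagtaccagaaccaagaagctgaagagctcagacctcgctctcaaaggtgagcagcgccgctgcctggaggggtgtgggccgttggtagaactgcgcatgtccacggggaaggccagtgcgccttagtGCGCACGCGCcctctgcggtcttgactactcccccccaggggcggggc
The first capital lies 26 bases before the annotated start in Ndufa5, 30 in Ndufa8 and 48 in Uqcc2.

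Complex II, succinate dehydrogenase, had none of its 4 members past the threshold, beside 9.74% of all tested genes. It is also an enzyme of the citric acid cycle. Its 4 genes had a median log2 fold change of 0.030, and of -0.047 with the length trend removed. Sdha, the flavoprotein that oxidises succinate, stood at 209.7, 210.1 and 223 CPM in control and at 226, 217 and 219 CPM with D-serine (log2 fold change 0.043, SE 0.043). Sdhb, the iron-sulfur subunit, had the largest positive value in the complex, 0.047 (SE 0.046), and Sdhd, a membrane anchor, the lowest, -0.028 (SE 0.059). The groups overlapped in all 4 genes.

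Complex III, the cytochrome bc1 complex, had 9 tested members and none past the threshold, beside 9.74% of all tested genes. Its median log2 fold change was 0.062, 0.0012 with the length trend removed and 0.019 without D-serine replicate 1. Uqcrq, a small subunit, had the largest value. It stood at 446, 465 and 483 CPM in control and at 573, 468 and 526 CPM with D-serine, so that D-serine replicate 2 fell among the control libraries (log2 fold change 0.17, SE 0.062, edgeR adjusted p = 0.0978). The catalytic subunits were nearer 0, with 0.062 (SE 0.055) for Uqcrfs1, the Rieske iron-sulfur protein, and 0.017 (SE 0.043) for Cyc1, cytochrome c1. Uqcrc2, a core protein without a redox centre, had the lowest value, -0.0064 (SE 0.044). It shares 228 exonic bases with Pdzd9 on the opposite strand.

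Uqcc2, which assists the early assembly of cytochrome b into complex III, rose from 30.3, 35.4 and 35.9 CPM in control to 47.7, 38.4 and 43.2 CPM with D-serine. All D-serine libraries were above all control libraries. The log2 fold change was 0.35 (SE 0.084, edgeR adjusted p = 0.0251), 0.26 with the length trend removed (adjusted p = 0.0118) and 0.27 without D-serine replicate 1 (adjusted p = 0.0202). The other assembly factors matched by the rule, Uqcc1 (-0.013, SE 0.045) and Uqcc3 (0.17, SE 0.11), named after their values were seen, did not pass.

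Cytochrome c, the soluble carrier between complexes III and IV and a trigger of apoptosis when it leaves the mitochondrion, is encoded by Cycs. It stood at 321, 314 and 320.1 CPM in control and at 366, 345 and 343.5 CPM with D-serine. It rose by 0.14 on the log2 scale (SE 0.042, edgeR adjusted p = 0.0466), with no overlap between the groups. At 3059 bases it is the longest of the 11 and the only one over 1000 bases. Its log2 fold change was 0.14 with the length trend removed as well (adjusted p = 0.00657) and 0.11 without D-serine replicate 1 (adjusted p = 0.0295).

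Complex IV, cytochrome c oxidase, had 1 of 16 tested members past the threshold, beside 4.84% of all tested genes called higher. Its median log2 fold change was 0.057. Cox6a2, the isoform of subunit VIa known from heart and skeletal muscle, stood at 17.6, 20.03 and 22.0 CPM in control and at 28.9, 24.97 and 24.4 CPM with D-serine. The groups did not overlap, and it rose by 0.39 on the log2 scale (SE 0.091, edgeR adjusted p = 0.0220), the largest change among the 11. It kept its call with the length trend removed (0.30, adjusted p = 0.0130) and without D-serine replicate 1 (0.31, adjusted p = 0.0198). Its counterpart in most tissues, Cox6a1, stood between 69.2 and 72.3 CPM in control, and between 69.2 and 82.6 CPM in the D-serine libraries (log2 fold change 0.067, SE 0.064, adjusted p = 0.530). Cox6a2 shares 69 exonic bases with Itgad on the opposite strand. The muscle markers Ckm, Myh7 and Acta1 summed to between 1.34 and 2.23 CPM in control, against between 1.80 and 2.93 CPM in the D-serine libraries, and their part in the result was not tested.

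Cox4i1, the largest nuclear subunit of complex IV, stood at 719, 725 and 779 CPM in control and at 822, 727 and 719 CPM with D-serine (log2 fold change 0.029, SE 0.054). Cox5a, a further nuclear subunit, was 0.18 higher without passing (SE 0.065, edgeR adjusted p = 0.0944), although its groups did not overlap. Cox5b, a zinc-binding subunit, had the lowest value among complex IV members with at least 5 CPM, -0.029 (SE 0.063). Its value with the length trend removed was -0.12 (edgeR adjusted p = 0.0391). Without D-serine replicate 1 the median of complex IV was 0.0055, and with the length trend removed it was -0.028.

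Complex V had 1 of 15 tested members past the threshold, again beside 4.84% of all tested genes called higher, with a median log2 fold change of 0.10. Atp5j2, the f subunit of the membrane part, stood at 208, 219 and 222 CPM in control and at 270.0, 233 and 247 CPM with D-serine. It rose by 0.21 on the log2 scale with no overlap (SE 0.054, edgeR adjusted p = 0.0309), by 0.12 with the length trend removed (adjusted p = 0.0175) and by 0.15 without D-serine replicate 1 (adjusted p = 0.0145).

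The F1 head of the ATP synthase, which makes the ATP, had none of its 5 genes past the threshold, beside 9.74% of all tested genes. Atp5b, the catalytic beta subunit, stood at 2472, 2545 and 2627 CPM in control and at 2607, 2428 and 2498 CPM with D-serine (log2 fold change -0.021, SE 0.039). Atp5a1, the alpha subunit, had the lowest value of the complex, -0.053 (SE 0.039, edgeR adjusted p = 0.396). Atp5e, the smallest subunit of the head, had the highest, 0.28 (SE 0.084, adjusted p = 0.0547). It stood at 75.6, 87.6 and 101.5 CPM in control and at 103, 103 and 115 CPM with D-serine. Its groups did not overlap, but control replicate 3 came within 2 CPM of D-serine replicates 1 and 2. Without D-serine replicate 1, Atp5e passed (0.30, adjusted p = 0.0104). Over the 5 genes of the head the median was 0.031, and over the 10 genes of the membrane part and stalk it was 0.10. With the length trend removed these medians were -0.056 and 0.015, and without D-serine replicate 1 they were 0.012 and 0.041. Their median lengths were 1799 and 685.5 bases, and the difference was not tested.

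Summed over a complex, the groups overlapped in every case. The members of complex I summed to 2964, 3079 and 3219 CPM in control and to 3560, 3117 and 3256 CPM with D-serine, so that D-serine replicate 2 lay between control replicates. The mean was 7.24% above control with all libraries and 3.21% above without D-serine replicate 1. For complexes II to V the same percentages were 1.498% and -1.47% (II), 5.47% and 2.09% (III), 3.61% and -0.748% (IV), and 1.498% and -0.897% (V). In each complex the highest sum was that of D-serine replicate 1.

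Levels were compared between genes per length, in TPM (counts divided by exon length and scaled to the same total in every library). Atp5b was the most abundant member, at 3174 ± 59 TPM (SD over all 6 libraries). Uqcrq, at 2330 ± 180 TPM, and Cox4i1, at 2309 ± 87.5 TPM, followed and did not differ beyond their spread. Atp5g3, at 1320 ± 50.4 TPM, led the 3 genes for the c subunit of the ATP synthase ring, which make the same mature protein, above Atp5g2 at 695 ± 40.6 TPM and Atp5g1 at 423 ± 31.96 TPM. The median level was 223 TPM in complex I, 323 TPM in complex II, 399 TPM in complex III, 294 TPM in complex IV and 688 TPM in complex V, against 23.3 TPM in all tested genes. Several tissue isoforms were low. Cox4i2, the isoform known from lung, stood at 3.02 ± 0.84 TPM, and Cox7a1 at 2.75 ± 1.197 TPM against 137.5 ± 5.1 TPM for Cox7a2. The supercomplex factor Cox7a2l was not among the low genes, at 204 ± 4.6 TPM. Cox6a2 was higher than Cox7a1 and Cox8b, also known from muscle, at 82.2 ± 13.1 TPM, but below Cox6a1 at 320.5 ± 16.4 TPM. Ndufa4, a complex IV subunit named for complex I, stood at 1070 ± 44.2 TPM, and its paralog Ndufa4l2 at 1.39 ± 0.45 TPM.

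**Figure D5:**
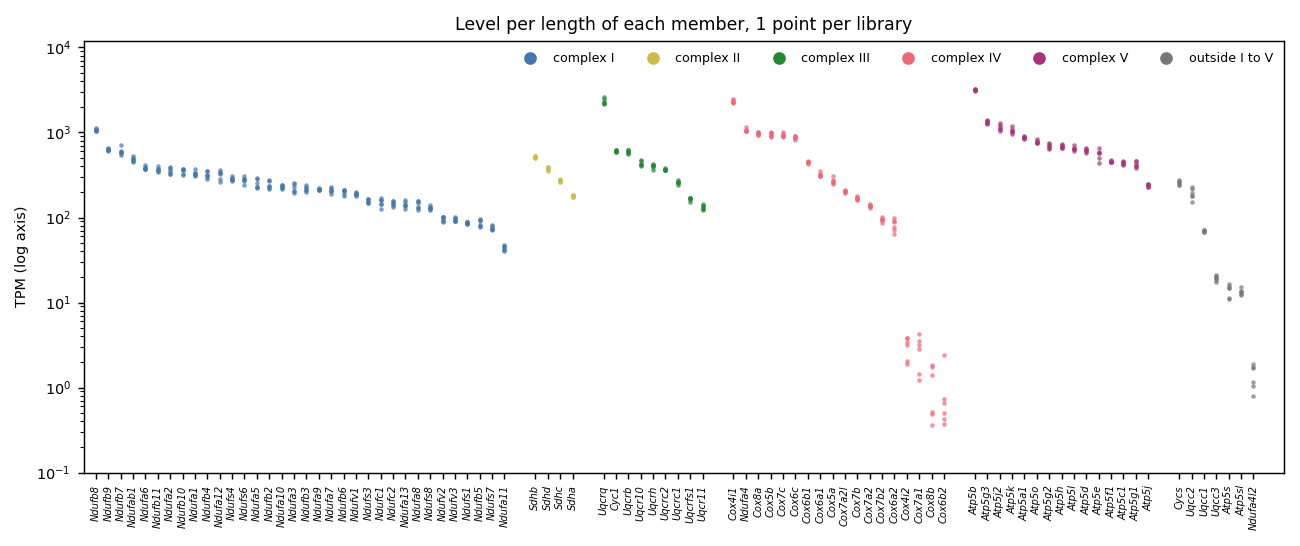
Level per length (TPM, log axis) of each member shown, 1 point per library, ordered by level within each complex. The isoforms Cox4i2, Cox7a1, Cox8b and Cox6b2 and the paralog Ndufa4l2 lie below 10 TPM, apart from the other members.

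The 4 members that were not tested had few or no counts. Cox8c was at 0 counts in all 6 libraries, which allows a level of up to 0.0930 CPM in the shallowest library, for counting error only. Ndufs5 was also listed at 0 in all 6, but 484 of its 509 exonic bases are shared on the same strand with BC002163, so its 0 sets no limit on its level. Cox8b had between 2 and 11 counts per library and Cox6b2 between 4 and 23.

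Assembly factors, which are no subunits of the finished complexes, were taken from a list of 48 genes. Of 46 tested, 7 were higher and 0 lower, where 4.84% and 4.9% of all tested genes were. Their median log2 fold change was 0.14 (0.0053 over all genes) at a median length of 1445.5 bases. With the length trend removed 6 were higher and 0 lower, where 7.65% and 7.63% of all tested genes were, and their median was 0.085. Without D-serine replicate 1 there were 6 higher and 1 lower, where 5.78% and 6.76% of all tested genes were. Nubpl, which delivers iron-sulfur clusters to complex I, stood at 7.84, 8.09 and 8.52 CPM in control and at 13.6, 11.8 and 12.01 CPM with D-serine. It rose by 0.61 on the log2 scale (SE 0.095, edgeR adjusted p = 0.00588), and it stayed past the threshold in each of the 6 fits that left out 1 library, with a highest adjusted p of 0.0434. Timmdc1, also for complex I, rose by 0.26 (adjusted p = 0.0283), Sdhaf1, for the iron-sulfur subunit of complex II, by 0.42 (adjusted p = 0.0243) and Tmem70, for the ATP synthase, by 0.27 (adjusted p = 0.0262). These 4 kept their calls with the length trend removed. Of the complex IV factors Cox14 (0.26, adjusted p = 0.0275) and Coa4 (0.35, adjusted p = 0.0423), neither did (adjusted p = 0.0591 and 0.102). The seventh factor past the threshold, Coa3, also of complex IV and named after its values were seen, rose by 0.39 (adjusted p = 0.0463) and kept its call with the trend removed (0.29, adjusted p = 0.0433). Of these 7, Nubpl alone stayed past the threshold with each library left out in turn, and the highest adjusted p of the other 6 was between 0.0949 and 0.176.

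A list of 20 genes held those for coenzyme Q synthesis, other enzymes that feed electrons to it, and Hccs, which does neither. Of these 20, 2 were higher and 0 lower, again beside 4.84% and 4.9% of all tested genes. Their median log2 fold change was 0.076. Coq2, which attaches the isoprenoid tail of coenzyme Q to its ring, stood at 24.3, 23.2 and 26.5 CPM in control and at 33.7, 29.5 and 34.0 CPM with D-serine (0.39, SE 0.075, edgeR adjusted p = 0.0115). Coq9, a lipid-binding protein of the same pathway, rose by 0.23 (adjusted p = 0.0189). Of 13 tested genes for ATP exchange and uncoupling, 1 was higher and 0 lower, beside 4.84% and 4.9% of all tested genes. That gene was Ucp2, an inner membrane carrier. It stood at 62.2, 65.1 and 71.1 CPM in control and at 82.0, 78.1 and 79.2 CPM with D-serine (0.27, SE 0.056, adjusted p = 0.0149). The groups did not overlap in these 3 genes, and all 3 kept their calls with the length trend removed (edgeR adjusted p = 0.0025, 0.00744 and 0.00482). In that fit 7.65% of all tested genes were called higher and 7.63% lower. There 1 gene of each list was called lower, Coq6 (-0.17, edgeR adjusted p = 0.0289) and Vdac1 (-0.12, adjusted p = 0.0120), both named after their values were seen. None of the 3 higher genes kept its call with each library left out in turn, where the highest edgeR adjusted p was 0.0652 for Coq2, 0.0935 for Coq9 and 0.0744 for Ucp2.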

How the data were processed

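The values are raw counts as the authors deposited them, 1 column for each of 6 polyA RNA libraries (stranded kit, per the labels), beside a gene length column that holds exonic bases, per the file headers. The submitters' processing notes name bcl2fastq, Trim Galore, HISAT2, featureCounts, Subread and DESeq2, with the build GRCm38 (mm10). Versions, strandedness at counting and the treatment of multi-mapping reads are not given in the sources used here, so genes with near-identical copies, and the 10 members whose exons overlap another gene, are uncertain. Of 87 members found in a GRCm38.p6 table, 2 had the start that the count table gives, so no coordinates of the count table are printed.

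Counts were tested with edgeR 4.0.16 in R 4.3.3: filterByExpr, TMM scaling, quasi-likelihood F test, no covariate, Benjamini-Hochberg adjustment over all 13366 genes, two-sided. A standard error is the log2 fold change divided by the square root of F. The length trend was a natural spline with 5 degrees of freedom on log2 length, fitted per library to log2 CPM, centred and added to the offsets. The main fit and the fit with the length trend removed were checked on simulated counts. The simulation had the same dispersion for every gene, no length trend and no library set apart, so it does not cover those features of these libraries. The alternatives were DESeq2 1.42.0, limma-voom (limma 3.58.1), other scalings and filters, the replicate block, length trend removal and leaving out each library.

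Named members were all those past the threshold, the highest and lowest of each complex with at least 5 CPM, fixed core subunits and tissue isoforms. From the other lists, up to 6 genes past the threshold were named. The members and lists were chosen with earlier results of these data known. Symbols of 27 genes read as dates and were kept as separate features. Values of a few single genes are not reported here, although those genes remain in every fit, count and median.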

Additional observations from a re-analysis of the deposited data

How the results depend on the processing

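The number of members past the threshold, 11, was 9 to 15 with DESeq2, limma-voom, the other scalings and the other filters on low counts, none of them lower. Over all genes, the calls in these settings ran from 1261 with limma-voom to 1867 of 17635 genes with no filter, where 15 members passed. In the fits that left out 1 library the number of members ran from 0 to 22, with 0 to 22 higher and 0 to 1 lower. The cause was not tested. No correlation of deviations between libraries with the same replicate number exceeded 0.1 (-0.069, 0.020 and -0.019), and 1 of the 6 libraries correlated best with its own number, so the numbers were not taken to pair the libraries. With replicate number as a block, 2 members passed, both higher, against 298 of all genes, in place of 1302. They were Ndufa3, the only 1 of the 11 that kept its call there, and Atp5e, which is not among the 11. Over all genes, 1302 calls became 2043 with the length trend removed and ran from 68 to 1699 when 1 library was left out. With the length trend removed, 8 members were higher and 3 lower, against 1023 and 1020 of all 13366 genes. With that removal and the block together, 10 were higher and 2 lower, against 945 and 955 of all genes. With that removal and without D-serine replicate 1, 8 were higher and 6 lower, against 923 and 941 of 13553 genes.

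The median log2 fold change of the members was 0.015 with the length trend removed, 0.015 with the block as well, and -0.0087 with that removal and without D-serine replicate 1. In the same 3 settings it was -0.047, -0.048 and -0.057 for complex II and -0.028, -0.029 and -0.042 for complex IV. For complex V it was 0.011, 0.011 and -0.017. For complex III it was -0.0012 in the second and -0.024 in the third, and for complex I it was 0.020 in the third. In the fits that left out 1 library it ran from 0.035 to 0.13 for all members, and for complex II from -0.0095 to 0.056. Cox4i1 was -0.090 in the third setting (edgeR adjusted p = 0.0479). None of the 11 members stayed past the threshold in all 6 fits that left out 1 library. The filter on low counts left 4 members untested, 1 of which (Ndufs5) shares most of its exonic bases with another gene.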

Other observations

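Ndufs5, a small complex I subunit expressed in most cells, was listed at 0 counts in all 6 libraries. Of its 509 exonic bases in the count table, 484 are also listed, on the same strand, as exons of BC002163, which had 3, 8 and 5 counts in control replicates 1 to 3 and 14, 6 and 9 with D-serine. No other member shares exonic bases on the same strand with another gene of the table.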
